A study of Mus musculus with 4 samples.

Results

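The platelet-derived growth factor (PDGF) family was represented by 6 of the 55472 entries of the gene table, the ligand genes Pdgfa, Pdgfb, Pdgfc and Pdgfd and the receptor genes Pdgfra and Pdgfrb. The genes were taken by symbol and all 6 were found. They were described in 4 mammary tumours from 3 female mice of 13 to 14 weeks on an FVB background. Every tumour carried the same alleles: MMTV-PyMT, in which the MMTV promoter drives the polyoma middle T oncogene in mammary epithelium, K14Cre, in which a keratin 14 promoter drives Cre recombinase, and the Cre reporter Rosa-tdTomato. Tumour 1 was pooled from multiple glands of mouse 1, tumour 2 was an inguinal tumour of mouse 2, and mouse 3 gave tumour 3 (thoracic) and tumour 4 (inguinal). Tissue was dissociated with enzymes, dead cells were held back on a magnetic column, and single cells were profiled by droplet RNA sequencing. No normal gland was analysed here, so the comparisons are between cell classes of the same tumours.

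PDGF ligands are secreted dimers, and their receptors are tyrosine kinases of class III, the class that also holds Kit and Csf1r. PDGF-A and PDGF-C signal mainly through the alpha receptor, PDGF-D mainly through the beta receptor, and PDGF-B through both. PDGF-A and PDGF-B are cut by proprotein convertases inside the cell, whereas PDGF-C and PDGF-D are released as latent dimers that serine proteases activate outside it. In vessels, endothelial PDGF-B recruits pericytes that carry the beta receptor, and in many tissues the alpha receptor marks fibroblasts.

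Cells with at least 300 detected genes and under 15% mitochondrial UMIs were kept, 36138 of 36162 barcodes. A UMI (unique molecular identifier) stands for a captured transcript. The libraries held between 20281799 and 39370565 UMIs, with medians of 1922.5 to 3281 UMIs per barcode, tumour 1 being the shallowest, and each pair of libraries shared between 96 and 129 barcode sequences. A cell was placed by UMIs of a few gate genes: basal with at least 3 of Krt5 and Krt14, fibroblast with at least 10 of Col1a1 and Col3a1, mural (pericytes and vascular smooth muscle) with at least 3 of Rgs5, endothelial with at least 2 of Cdh5 and Pecam1, and macrophage with at least 5 of C1qa and C1qb. Cells that passed none of these and had at least 3 UMIs of Krt8 and Krt18 were luminal. This gave 940 basal, 1495 fibroblast, 240 mural, 629 endothelial, 3008 macrophage and 20571 luminal cells. A further 171 cells that passed more than 1 non-luminal gate and 9084 cells that passed none were kept apart. Doublets were not removed.

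Marker lists of the fibroblast, mural, endothelial and macrophage classes had their highest summed level in their own class, while the basal and luminal lists overlapped other classes. The basal list (Acta2, Myh11, Trp63, Oxtr, Krt17, Mylk) summed to between 564 and 1162 CPM, the count of UMIs scaled to 1000000 UMIs of the class, in basal cells across tumours, and to between 1340 and 2802 CPM in mural cells, which share its contractile genes. Luminal genes were counted in every class: 52.7% of basal and 34.2% of mural cells also had at least 3 UMIs of the luminal keratins. In tumour 2 this share was 89.1% of basal cells. The luminal list (Epcam, Krt19, Cldn3, Cldn7, Elf3) summed to between 940 and 2317 CPM in basal, 516 and 781 CPM in mural and 1365 and 1498 CPM in luminal cells. Whether cells made these transcripts themselves or carried them over from other cells was not tested. Leaving out cells with luminal keratins, as done below, removes cells of either kind and cannot tell them apart.

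Pdgfa was highest in mural cells, and most Pdgfra UMIs lay in fibroblasts. Luminal cells held 70.2% of Pdgfc UMIs, close to their 68.1% of all UMIs. The stretches just upstream of a RefSeq start of Pdgfa, Pdgfc and Pdgfra are shown. They are taken from RefSeq (build GRCm38.p6), on the strand of the gene and 5′ to 3′, with matches to 3 motifs in capitals: the GC box (GGGCGG), the TATA box with the letters TATAAA, and the CArG box, each searched on both strands in the 250 bases before the start. The Pdgfa stretch (chr5:138995038-138995194, minus strand) leaves out the part of that window that an exon of another Pdgfa transcript covers in GENCODE M21, where 2 GC boxes lie. This stretch lies inside the span of Pdgfa in GENCODE M21 (138976014 to 138997370), not upstream of the whole gene. A second RefSeq window of Pdgfa (138994282 to 138994531), with 1 GC box, is not shown. The Pdgfc window is chr3:81036166-81036415 and the Pdgfra window chr5:75152001-75152250, both on the plus strand, and the Pdgfra window ends upstream of the start of the gene in GENCODE M21.
Pdgfa: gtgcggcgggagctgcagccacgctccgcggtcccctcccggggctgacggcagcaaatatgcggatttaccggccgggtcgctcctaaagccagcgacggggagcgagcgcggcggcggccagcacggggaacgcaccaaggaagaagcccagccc
Pdgfc: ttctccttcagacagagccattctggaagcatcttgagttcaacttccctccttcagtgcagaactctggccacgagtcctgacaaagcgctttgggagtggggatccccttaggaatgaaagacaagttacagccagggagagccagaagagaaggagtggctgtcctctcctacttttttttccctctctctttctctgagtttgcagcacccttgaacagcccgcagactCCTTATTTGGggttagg
Pdgfra: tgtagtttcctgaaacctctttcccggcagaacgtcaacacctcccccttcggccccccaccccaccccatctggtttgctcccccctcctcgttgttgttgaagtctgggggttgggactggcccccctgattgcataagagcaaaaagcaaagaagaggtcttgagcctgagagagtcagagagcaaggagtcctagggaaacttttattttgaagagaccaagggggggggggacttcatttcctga
The Pdgfc window held 1 CArG box, the site known from smooth muscle genes, and 1.47% of 32851 RefSeq promoter windows of the same length held one. Neither the Pdgfa nor the Pdgfra window held a CArG box or a TATA box, which 12.4% of windows held. A GC box was found in 32.7% of windows.

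Pdgfa (ENSMUSG00000025856, chromosome 5, 138976014 to 138997370, minus strand, GRCm38), which encodes the PDGF-A chain, had its highest level in mural cells. It measured 187, 223, 153 and 199 CPM in mural cells of tumours 1 to 4, against 19.8, 12.8, 18.9 and 18.5 CPM in luminal cells. The lowest mural value was above every value of the other 5 classes. In the fit on UMIs summed per mouse and class, mural cells were higher than luminal cells by 3.29 on the log2 scale (SE 0.27, adjusted p = 7.01e-10 over 10289 genes, higher in 3 of 3 mice). This held in all 11 alternative settings, with log2 differences between 3.06 and 3.62. At 1000 UMIs per cell, 21.7% ± 6.92 (SD, n = 3 mice) of mural cells had a Pdgfa UMI, against 1.84% ± 0.461 of luminal cells. As deposited the shares were 38.8% and 5.86%, at median depths of 2220 and 3296 UMIs.

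Macrophages and basal cells had the next highest mean levels of Pdgfa. Macrophages measured 65.8, 58.0, 57.4 and 58.5 CPM in tumours 1 to 4 and basal cells 81.1, 32.2, 99.3 and 56.1 CPM, and these ranges overlapped. Fibroblasts measured 13.8, 36.8, 19.5 and 33.4 CPM, and in tumour 2 they were above basal cells. Macrophages were higher than luminal cells by 2.00 log2 (SE 0.20, adjusted p = 1.04e-08), and basal cells by 1.86 log2 (SE 0.23, adjusted p = 3.73e-06), each in 3 of 3 mice. Without mouse 3 the basal difference was 1.48 log2 with an adjusted p of 0.0547. Without basal cells that held luminal keratins it was 2.89 log2. That fit had no basal cells of mouse 2, of which only 14 were left. Platelets are a known store of PDGF, and 4 platelet markers (Pf4, Ppbp, Itga2b, Gp9) summed to between 92.1 and 151 CPM in macrophages, against 9.15 and 12.1 CPM in luminal cells, with Gp9 at 0 in macrophages. The part of platelet RNA in the macrophage level was not tested.

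Endothelial cells averaged 25.8 ± 6.86 and fibroblasts 25.1 ± 11.5 CPM of Pdgfa, against 17.1 ± 3.79 CPM in luminal cells (SD, n = 3 mice each). Neither difference from luminal cells passed, at 0.34 log2 (SE 0.33, adjusted p = 0.465) for endothelial cells and 0.54 log2 (SE 0.26, adjusted p = 0.0851) for fibroblasts. The fibroblast difference did pass in 4 alternative settings, between 0.65 and 0.83 log2, the lowest adjusted p being 0.0229. The antisense gene 6330403L08Rik overlaps exons of Pdgfa, and whether counting used strand is not given in the sources used here. It had 42 UMIs in all kept cells, against 2832 of Pdgfa.

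**Figure D1:**
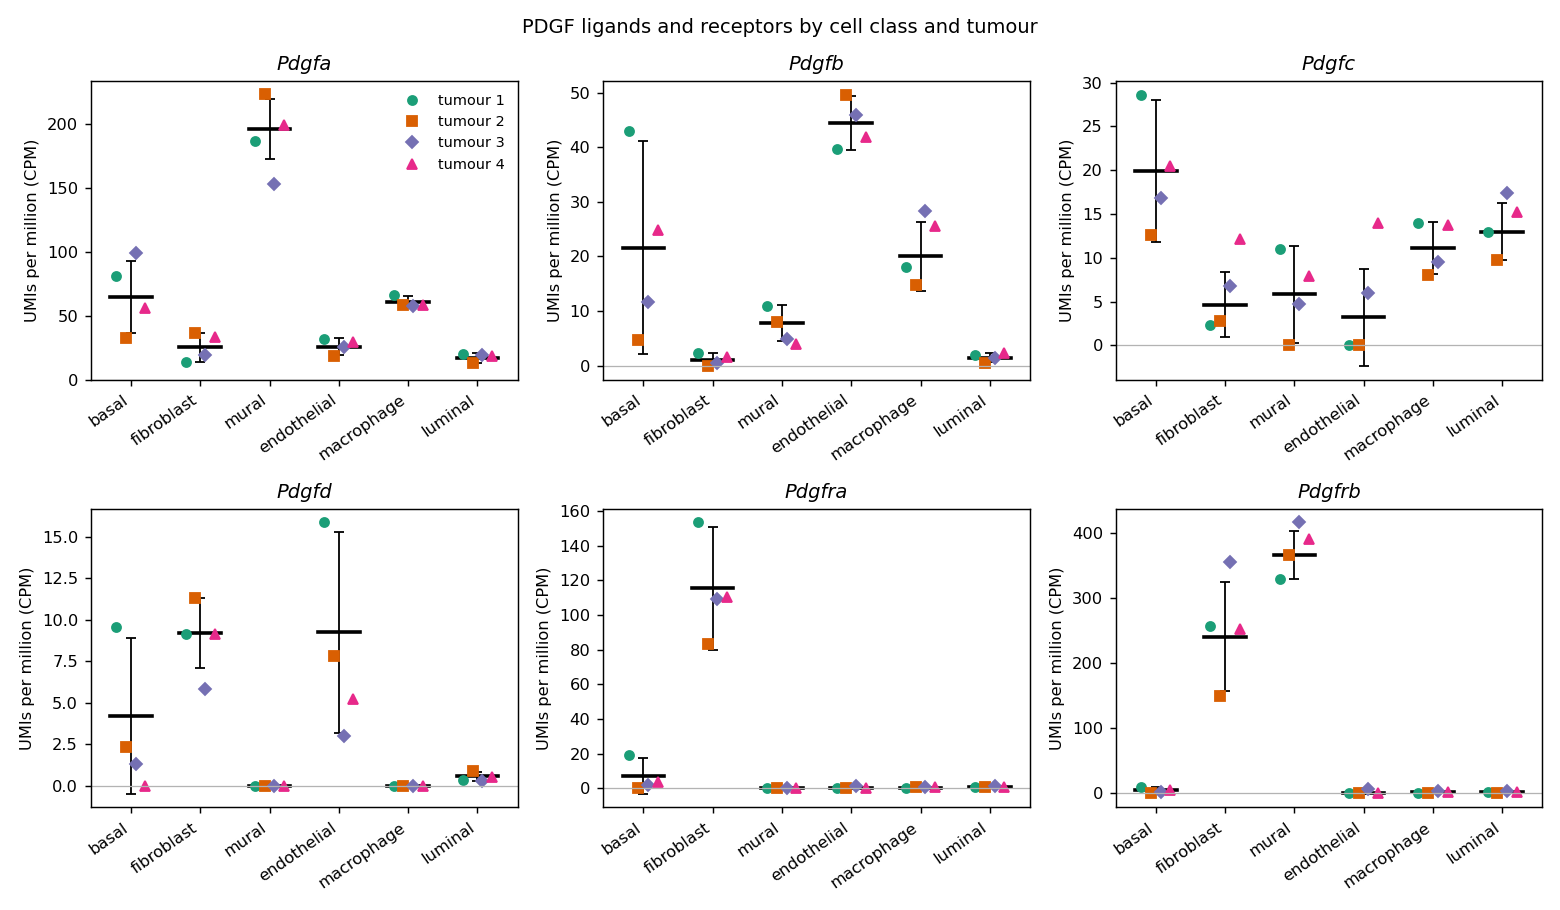
Level of each PDGF gene (CPM, UMIs of the gene per 1000000 UMIs of the class) in basal, fibroblast, mural, endothelial, macrophage and luminal cells, with a point per tumour and the mean and SD over 3 mice as black bars. Each panel has its own scale, and Pdgfa in mural cells lies between 153 and 223 CPM, above every other class.

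The basal class held cells with and without luminal keratin UMIs, and Pdgfa was lower in those with them. This split was described after the values had been seen and was not tested. Basal cells with at least 3 UMIs of Krt8 and Krt18 (495 cells) had 0, 28.9, 63.5 and 49.0 CPM of Pdgfa in tumours 1 to 4, against 160, 98.6, 140 and 87.4 CPM in basal cells with fewer (445 cells). The 2 sets of values did not overlap. For Pdgfb, basal cells with luminal keratins had 77.5, 4.82, 13.4 and 29.4 CPM, against 9.40, 0, 9.58 and 4.86 CPM in those without. The Pdgfb values rest on 50 and 9 UMIs and their ranges overlapped. Median depth was 4412 UMIs in basal cells with luminal keratins and 2164 in those without, and in tumour 2 only 14 basal cells were without.

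Pdgfb (ENSMUSG00000000489, chromosome 15, 79995874 to 80014977, minus strand), the ligand gene that vessels use to recruit pericytes, had its highest mean level in endothelial cells. It measured 39.7, 49.7, 46.0 and 41.9 CPM in endothelial cells of tumours 1 to 4, against 1.90, 0.443, 1.37 and 2.22 CPM in luminal cells. Every endothelial value was far above every luminal one. The difference was 4.88 log2 (SE 0.39, adjusted p = 3.2e-10, higher in 3 of 3 mice), and between 4.37 log2 without mouse 2 and 5.50 log2 without mouse 3 in the alternatives. At 1000 UMIs per cell, 3.49% ± 1.16 of endothelial and 0.156% ± 0.103 of luminal cells had a Pdgfb UMI (SD, n = 3 mice). As deposited, 9.97% of endothelial and 0.441% of luminal cells did, at median depths of 2231 and 3296 UMIs.

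Macrophages came next with basal cells. Macrophages measured 18.1, 14.8, 28.3 and 25.6 CPM of Pdgfb and were higher than luminal cells by 4.17 log2 (SE 0.33, adjusted p = 8.72e-11). Basal cells spread widely, at 42.9, 4.59, 11.6 and 24.9 CPM, and were higher than luminal cells by 3.48 log2 (SE 0.41, adjusted p = 2.44e-06). Both differences had the same sign in 3 of 3 mice and passed in all 11 alternatives. Without basal cells that held luminal keratins, however, the basal difference was 2.45 log2. It then rested on 9 basal UMIs of Pdgfb, with no basal cells of mouse 2 in the fit. The basal value of tumour 1 came from 9 UMIs in 5 cells and was above the endothelial value of that tumour, and basal against endothelial cells was not tested. Mural cells had a single Pdgfb UMI in each tumour, and fibroblasts had 4 UMIs in 1495 cells.

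Tip cells lead vessel sprouts and are known as a source of PDGF-B. Endothelial cells with a UMI of Esm1, Apln or Angpt2 (158 cells) had 99.6, 59.2, 87.1 and 60.3 CPM of Pdgfb in tumours 1 to 4, against 20.9, 43.4, 34.3 and 36.4 CPM in endothelial cells with none (471 cells). The 2 sets of values did not overlap, and the difference was 0.91 log2 (SE 0.35), higher in 3 of 3 mice. It did not pass the adjustment over 2596 genes (adjusted p = 0.269), and 1.08% of the genes tested passed in that comparison, 0.347% higher and 0.732% lower. The 7 alternatives with an adjusted p gave one between 0.137 and 0.98. Cells with tip genes had a median of 2408 UMIs and those without 2108, and the value of tumour 1 rests on 3 UMIs in 18 cells with tip genes. As deposited, 17.7% of cells with tip genes and 8.28% of those without had a Pdgfb UMI. At the equal depth per cell used above, these shares were 2.58% and 3.46%. At that depth the share was lower in cells with tip genes in tumours 2, 3 and 4 and higher in tumour 1. The direction of the shares over all tumours was thus not kept, and the shares were not tested.

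Pdgfc (ENSMUSG00000028019, chromosome 3, 81036416 to 81214040, plus strand), a latent ligand of the alpha receptor, had its highest mean levels in basal, luminal and macrophage cells, with every successive pair of class ranges overlapping. It measured 28.6, 12.6, 16.8 and 20.5 CPM in basal cells, 14.0, 8.01, 9.57 and 13.8 CPM in macrophages, and 12.9, 9.72, 17.4 and 15.2 CPM in luminal cells of tumours 1 to 4. These ranges overlapped, and neither basal cells (0.30 log2, SE 0.28, adjusted p = 0.645) nor macrophages (-0.13 log2, SE 0.25, adjusted p = 0.701) differed from luminal cells past the threshold. Fibroblasts were lower, at 2.29, 2.83, 6.82 and 12.2 CPM, a difference from luminal cells of -1.12 log2 (SE 0.32, adjusted p = 0.00546, lower in 3 of 3 mice). That call was lost with the DESeq2 test (adjusted p = 0.0511) and without the mouse block (adjusted p = 0.0795). Endothelial cells had 0, 0, 5.93 and 14.0 CPM from 12 UMIs and were lower than luminal cells by the fit (-1.32 log2, SE 0.44, adjusted p = 0.0198). Without the block (adjusted p = 0.12), with the DESeq2 test (0.0807), without mouse 1 (0.0671) or without mouse 2 (0.0999) that difference did not pass. All 12 endothelial UMIs came from mouse 3, and without that mouse Pdgfc was below the count filter in every comparison with luminal cells. In endothelial cells of tumour 1 a floor of 3 UMIs is 23.8 CPM, above the luminal 12.9 CPM, so that 0 does not show a lower level. In tumour 2 the floor is 7.85 CPM, against 9.72 CPM in luminal cells. Mural cells had 4 Pdgfc UMIs. The antisense gene Gm16000, which overlaps exons of Pdgfc, had 4 UMIs in all kept cells.

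Pdgfd (ENSMUSG00000032006, chromosome 9, 6168584 to 6378850, plus strand), a latent ligand of the beta receptor, was the sparsest member, with 122 UMIs in all kept cells. Fibroblasts had 9.17, 11.3, 5.84 and 9.12 CPM and endothelial cells 15.9, 7.85, 2.97 and 5.24 CPM in tumours 1 to 4, against 0.362, 0.887, 0.297 and 0.542 CPM in luminal cells. Every fibroblast and endothelial value was above every luminal value, although the endothelial ones rest on 10 UMIs. Pdgfd did not pass the count filter. With no filter, it was higher in fibroblasts (3.79 log2, SE 0.47, adjusted p = 1.04e-14) and in endothelial cells (3.12 log2, SE 0.67, adjusted p = 5.94e-05) than in luminal cells. Macrophages had no Pdgfd UMI among 3008 cells, which allows a share of up to 0.0997% of cells with a UMI and sets no limit on cells expressing the gene. Against a floor of 3 UMIs over the class, the macrophage level was at least 20.2-fold lower than that of fibroblasts. Mural cells also had none among 240 cells, at least 1.80-fold lower. Shares, floors and count intervals cover counting error only.

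Pdgfra (ENSMUSG00000029231, chromosome 5, 75152292 to 75198215, plus strand), the alpha receptor gene, was found in fibroblasts and scarcely elsewhere. It measured 154, 83.4, 109 and 110 CPM in fibroblasts of tumours 1 to 4, against 0.905, 0.532, 1.49 and 1.04 CPM in luminal cells. The difference was 6.82 log2 (SE 0.28, adjusted p = 2.13e-15, higher in 3 of 3 mice). At 1000 UMIs per cell, 12.3% ± 2.83 of fibroblasts had a Pdgfra UMI, against 0.0637% ± 0.0356 of luminal cells (SD, n = 3 mice). As deposited the shares were 26.0% and 0.337%, at median depths of 2708 and 3296 UMIs. Macrophages had 5 Pdgfra UMIs and endothelial cells 1.

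Basal cells had 19.1, 0, 1.94 and 3.56 CPM of Pdgfra, from 11 UMIs. Their difference from luminal cells was 1.62 log2 (SE 0.64, adjusted p = 0.147). It passed with the DESeq2 test (adjusted p = 0.0292), without mouse 2 (0.0455) and when cells of several gates were assigned by the listed order of the gates (0.0115). The fibroblast marker list (Dcn, Lum, Pdpn, Col6a1, Col5a1, Dpt) summed to between 9.19 and 388 CPM in basal cells, against 4.67 and 29.5 CPM in luminal cells. Its part in the basal value was not tested. Exons of Gm42802 and Gm42803 on the opposite strand overlap Pdgfra, and these had 1 and 9 UMIs in all kept cells, against 687 of Pdgfra.

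Pdgfrb (ENSMUSG00000024620, chromosome 18, 61045150 to 61085061, plus strand), the beta receptor gene, was shared by mural cells and fibroblasts. Mural cells measured 329, 366, 416 and 391 CPM and fibroblasts 257, 150, 354 and 252 CPM in tumours 1 to 4, against 1.27, 0.532, 3.86 and 1.48 CPM in luminal cells. The difference from luminal cells was 7.76 log2 (SE 0.29, adjusted p = 1.11e-15) for mural cells and 7.32 log2 (SE 0.26, adjusted p = 2.94e-17) for fibroblasts, each in 3 of 3 mice. Without mouse 3 these were 8.54 and 7.90 log2. Basal, endothelial and macrophage values were all at or below 9.54 CPM. None of these 3 classes differed from luminal cells past the threshold. The basal difference, 0.76 log2 with an adjusted p of 0.579, passed in 1 of 11 alternatives, the listed order of gates (2.01 log2, adjusted p = 0.00813). Within mouse 3, the fibroblasts of the thoracic tumour had 354 CPM (95% Poisson interval 329 to 381), against 252 CPM (226 to 281) in those of the inguinal tumour. With 1 library per gland in that mouse, this difference has no replicate check.

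**Figure D2:**
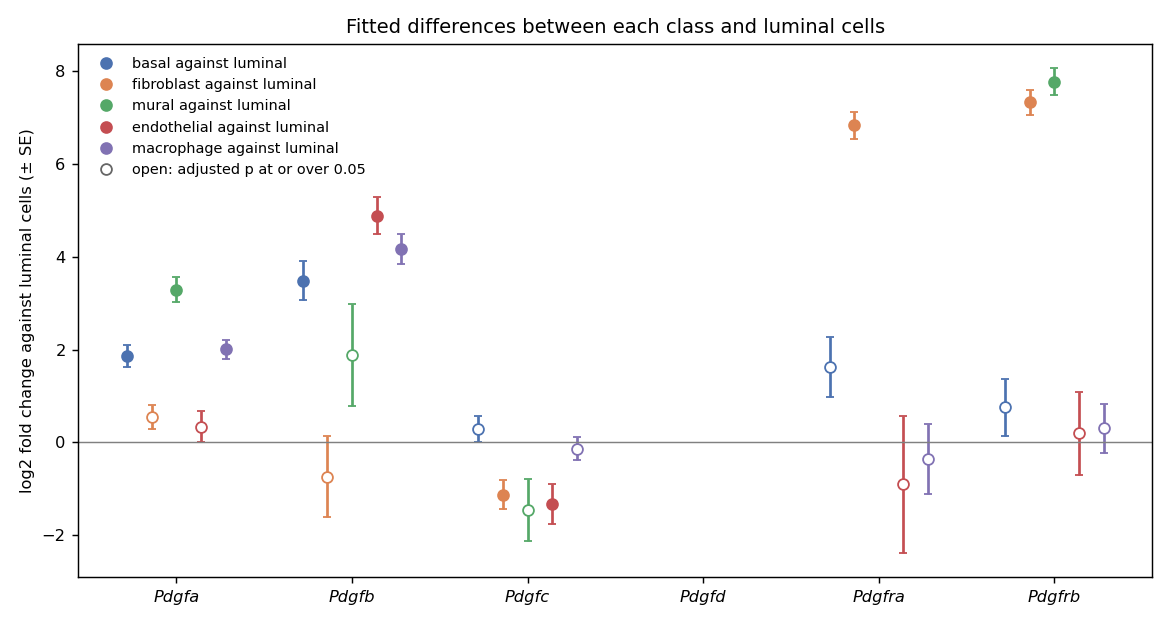
Fitted log2 fold change (± SE) of each PDGF gene in 5 classes against luminal cells, filled where the adjusted p is under 0.05. Pdgfrb stands at 7.76 in mural cells and 7.32 in fibroblasts, and Pdgfra at 6.82 in fibroblasts; Pdgfd was below the count filter, and Pdgfra in mural cells, at 0 UMIs, is not drawn.

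Mural cells and fibroblasts separated by the alpha receptor and by Pdgfa, and not past the threshold by the beta receptor. No Pdgfra UMI was found in 240 mural cells holding 676728 UMIs, against 109.7 CPM over all fibroblasts, so the mural level was at least 24.7-fold lower (floor of 3 UMIs over the class). The fit called this difference (adjusted p = 6.27e-07). Pdgfa was higher in mural cells, at 196 ± 23.7 CPM, against 25.1 ± 11.5 CPM in fibroblasts (SD, n = 3 mice each; 2.74 log2, SE 0.30, adjusted p = 3.63e-07). Pdgfrb differed by 0.44 log2 (SE 0.24, interval of 2 SE from -0.03 to 0.92, adjusted p = 0.248), higher in mural cells in 3 of 3 mice. The tumour ranges of Pdgfrb in the 2 classes overlapped. In this comparison 14.3% of all genes passed, 5.27% higher and 9.07% lower in mural cells. The fibroblast marker list summed to between 215 and 384 CPM in mural cells, against 3840 and 4241 CPM in fibroblasts, with Pdpn at 0 in mural cells.

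Receptor UMIs were then counted in single cells. Of 1495 fibroblasts, 208 had UMIs of Pdgfra alone, 538 of Pdgfrb alone, 195 of both and 554 of neither. Pdgfrb was found in 48.4% of fibroblasts with a Pdgfra UMI and in 49.3% of those without. At 1000 UMIs per cell these shares were 22.2% and 23.1%, over 1483 fibroblasts. As deposited, the share was higher among cells with a Pdgfra UMI in tumours 2 and 4 and lower in tumours 1 and 3. At 1000 UMIs per cell each of these directions was the opposite, so no direction was kept. Of 240 mural cells, 143 had a Pdgfrb UMI and none a Pdgfra UMI. Of the same mural cells, 59 had UMIs of both Pdgfa and Pdgfrb, 30 of Pdgfa alone, 84 of Pdgfrb alone and 67 of neither.

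**Figure D3:**
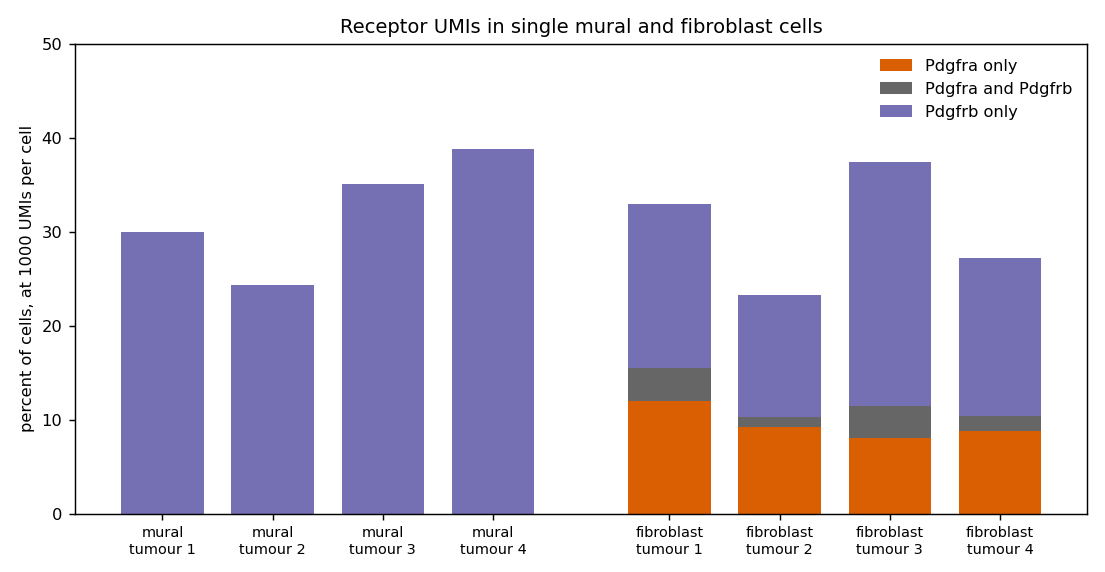
Percent of mural and fibroblast cells, per tumour and with each cell thinned to 1000 UMIs, that had UMIs of Pdgfra only, of both receptors, or of Pdgfrb only. Mural cells show Pdgfrb only, in 24.4% to 38.8% of cells, while Pdgfra alone or with Pdgfrb appears in all 4 fibroblast sets.

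Fibroblasts were divided by genes outside the PDGF family. Matrix-type cells (945) had a UMI of Postn or Lrrc15, genes of matrix-producing tumour fibroblasts, and none of Clec3b or Dpt; adventitial-type cells (106) had the reverse. Pdgfrb measured 292, 281, 390 and 282 CPM in matrix-type cells of tumours 1 to 4, against 136, 21.9, 178 and 22.9 CPM in adventitial-type cells. Every matrix-type value was above every adventitial-type value, and the difference was 1.91 log2 (SE 0.39, adjusted p = 0.00648 over 2521 genes, higher in 3 of 3 mice). In this comparison 10.2% of genes passed, 4.92% higher and 5.24% lower in matrix-type cells. The call held in all 11 alternatives, between 1.34 log2 without mouse 2 and 2.46 log2 without mouse 3, with a highest adjusted p of 0.0358. The adventitial-type values rest on 5, 3, 14 and 1 UMIs.

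Pdgfra did not follow Pdgfrb in that division. It measured 158, 67.5, 110 and 117 CPM in matrix-type cells, against 163, 80.3, 63.6 and 45.8 CPM in adventitial-type cells. The values overlapped, with a difference of 0.24 log2 (SE 0.35, interval of 2 SE from -0.46 to 0.95, adjusted p = 0.796). The 4 ligand genes were below the count filter in this comparison. Median depth was 2783 UMIs in matrix-type and 2290 UMIs in adventitial-type cells.

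**Figure D4:**
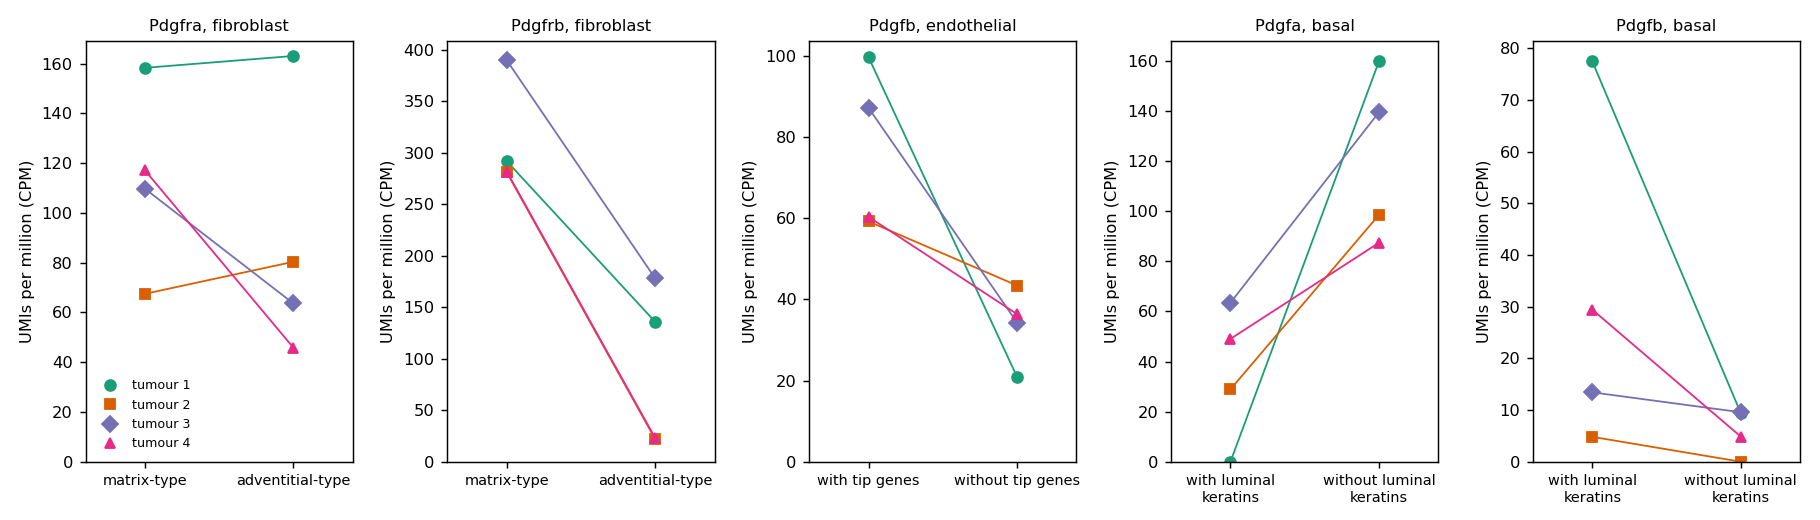
Level (CPM) of Pdgfra and Pdgfrb in matrix-type and adventitial-type fibroblasts, of Pdgfb in endothelial cells with and without tip genes, and of Pdgfa and Pdgfb in basal cells with and without luminal keratins, with a line per tumour. Pdgfrb is higher in matrix-type cells in all 4 tumours, at 281 to 390 CPM.

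Levels per class differ from where most transcripts were found, because luminal cells made up 56.9% of cells and 68.1% of UMIs. Of all Pdgfa UMIs, 47.5% lay in luminal cells, 15.9% in macrophages, 9.25% in basal and 4.48% in mural cells, although mural cells had the highest level. The luminal share of Pdgfa was 35.3% in tumour 3 and 67.4% in tumour 2, where luminal cells held 56.9% and 86.0% of all UMIs. Of Pdgfb UMIs, 34.4% lay in macrophages, 20.5% in luminal and 15.6% in endothelial cells. Luminal cells held 70.2% of Pdgfc UMIs, close to their share of all UMIs, and 41.0% of Pdgfd UMIs, of which fibroblasts held 29.5%. Of the 50 luminal Pdgfd UMIs 30 came from tumour 2, and without that tumour luminal cells held 26.3% and fibroblasts 36.8%. Without tumour 3 basal cells held 5.60% of Pdgfa UMIs. These shares without a tumour were added after seeing the data. Fibroblasts, with 3.75% of all UMIs, held 72.1% of Pdgfra and 61.0% of Pdgfrb UMIs, and mural cells, with 0.562%, held 12.5% of Pdgfrb UMIs. Cells that passed no gate, with 16.2% of all UMIs, held between 11.2% (Pdgfra) and 16.5% (Pdgfc) of each gene's UMIs. Their shares were 15.4% for Pdgfa and 14.2% for Pdgfrb.

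**Figure D5:**
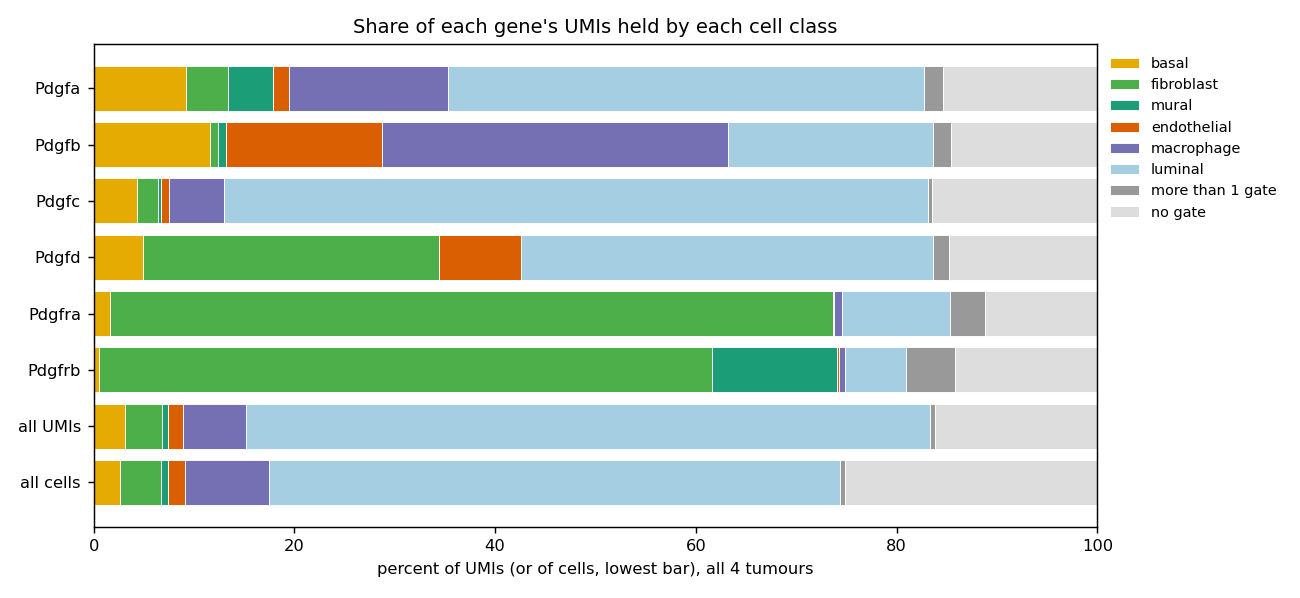
Share of the UMIs of each PDGF gene held by each cell class over all 4 tumours, with all UMIs and all cells for comparison. Fibroblasts hold 72.1% of Pdgfra and 61.0% of Pdgfrb UMIs, and luminal cells 70.2% of Pdgfc UMIs.

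The PDGF genes that passed were counted beside the share of all genes that did. Each comparison with luminal cells tested 5 PDGF genes. In basal cells 2 were higher and 0 lower, where 7.35% of all genes passed, 4.75% higher and 2.6% lower. In mural cells 2 were higher and 0 lower, where 15.1% of all genes passed, 8.29% higher and 6.85% lower. In macrophages 2 were higher and 0 lower, where 45.7% of all genes passed, 20.4% higher and 25.3% lower. In endothelial cells 1 was higher and 1 lower, where 35.2% of all genes passed, 16.6% higher and 18.6% lower. In fibroblasts 2 were higher and 1 lower, where 50.7% of all genes passed, 24.8% higher and 25.8% lower. A count of 2 or 3 of 5 in macrophages, endothelial cells or fibroblasts is near the share of all genes.

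Genes that cut or bind the ligands were described next, as 9 genes. In fibroblasts 6 of them were higher and 2 lower than in luminal cells, where 50.7% of all genes passed. The matrix protein Sparc, which binds PDGF-B, averaged 10280 ± 604 CPM in fibroblasts, against 42.8 ± 24.3 CPM in luminal cells (7.99 log2, SE 0.37, adjusted p = 2.91e-15). In mural cells 5 were higher and 1 lower, where 15.1% of all genes passed. Among these Plat, the tissue plasminogen activator that activates PDGF-C, averaged 41.7 ± 39.9 CPM, against 0.519 ± 0.466 CPM in luminal cells (5.97 log2, SE 0.57, adjusted p = 1.46e-08), higher in 2 of 3 mice. In endothelial cells 5 were higher and 1 lower, where 35.2% of all genes passed. Nrp1, a neuropilin that binds VEGF and PDGF, was higher there by 6.90 log2 (SE 0.28, adjusted p = 7.04e-16). In macrophages 5 were higher and 2 lower, where 45.7% of all genes passed. There Plau, the urokinase that activates PDGF-D, averaged 10.7 ± 5.53 CPM, against 0.121 ± 0.110 CPM in luminal cells (6.04 log2, SE 0.54, adjusted p = 1.17e-09). In basal cells, where 7.35% of all genes passed, 3 were higher, Sparc by 3.05 log2 (SE 0.32, adjusted p = 3.6e-07), and none was lower. The median log2 difference of the list ran from 1.01 in macrophages to 5.52 in fibroblasts, against medians of all genes between -0.15 and -0.02.

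Between mural cells and fibroblasts 4 of these 9 genes were lower in mural cells and none was higher, where 14.3% of all genes passed. Pcsk5, a proprotein convertase, averaged 1.45 ± 2.51 CPM in mural cells, against 111 ± 37.9 CPM in fibroblasts (-5.31 log2, SE 0.53, adjusted p = 8.26e-08). In matrix-type against adventitial-type fibroblasts 5 of the 9 were tested and 1 passed (10.2% of all genes did), Sparc, by 0.86 log2 (SE 0.17, adjusted p = 0.00486). The DESeq2 test gave an adjusted p of 0.0953 for it.

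Of the other ligands of the PDGF and VEGF superfamily (Vegfa, Vegfb, Vegfc, Vegfd, Pgf), Vegfd was the leading fibroblast gene. It averaged 67.9 ± 60.5 CPM in fibroblasts, against 0.0924 ± 0.0944 CPM in luminal cells (8.71 log2, SE 0.53, adjusted p = 1.5e-11). Mural cells had none, at least 10.0-fold lower than all fibroblasts together (floor of 3 UMIs). Within fibroblasts it averaged 12.9 ± 14.8 CPM in matrix-type cells, against 252 ± 75.5 CPM in adventitial-type cells (-4.80 log2, SE 0.43, adjusted p = 1.94e-05), the opposite direction to Pdgfrb. Vegfc, a lymphatic growth factor, averaged 13.4 ± 2.35 CPM in endothelial cells, against 0.632 ± 0.173 CPM in luminal cells (3.94 log2, SE 0.52, adjusted p = 1.34e-06). Pgf, the placental growth factor, was lower in macrophages than in luminal cells (-1.22 log2, SE 0.30, adjusted p = 0.00171), and this was lost without the block (adjusted p = 0.164). In all, 2 of 5 were higher and 1 lower in fibroblasts, 1 higher and 1 lower in endothelial cells, 1 lower in macrophages, and none passed in basal or mural cells. The shares of all genes that passed were 50.7% in fibroblasts, 35.2% in endothelial cells, 45.7% in macrophages, 7.35% in basal and 15.1% in mural cells.

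Of the related receptor genes Kit, Csf1r, Flt3, Flt1, Kdr and Flt4, 5 were tested, and 3 were higher and 1 lower in endothelial cells than in luminal cells, where 35.2% of all genes passed. Kdr, the main VEGF receptor and itself in the endothelial marker list, averaged 286 ± 29.3 CPM in endothelial cells, against 1.06 ± 0.930 CPM in luminal cells (7.65 log2, SE 0.36, adjusted p = 1.09e-14). Csf1r, the receptor of a macrophage growth factor and itself a macrophage marker here, averaged 304 ± 22.2 CPM in macrophages, against 1.50 ± 0.524 CPM in luminal cells (7.84 log2, SE 0.23, adjusted p = 4.73e-19). In fibroblasts Csf1r was higher by 2.31 log2 (SE 0.37, adjusted p = 1.21e-05), while the macrophage list summed there to between 31.1 and 63.3 CPM, against 30.3 and 55.3 CPM in luminal cells. The part of macrophage RNA in that value was not tested. Flt1, a VEGF receptor, was higher in mural cells than in luminal cells, by 5.06 log2 (SE 0.42, adjusted p = 1.01e-09), and than in fibroblasts, by 2.95 log2 (SE 0.44, adjusted p = 2.65e-05). The endothelial list summed to between 132 and 253 CPM in mural cells, against 18.4 and 104 CPM in fibroblasts and 7.68 and 21.3 CPM in luminal cells, and its part was not tested. Against luminal cells, 2 of the 5 were higher and 1 lower in fibroblasts, where 50.7% of all genes passed. The counts were also 2 and 1 in macrophages (45.7% of all genes), and 1 and 1 in mural cells (15.1%). None of the 5 passed in basal cells (7.35%).

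The 17 genes of receptor signalling and its regulators showed mixed differences. Against luminal cells, 5 were higher and 3 lower in fibroblasts, 5 and 4 in endothelial cells, 4 and 6 in macrophages, 0 and 1 in mural cells, and 0 and 0 in basal cells. Beside the shares of all genes that passed (50.7% in fibroblasts, 35.2% in endothelial cells, 45.7% in macrophages, 15.1% in mural and 7.35% in basal cells), nothing particular to the list is read from these counts. Pik3r1, the regulatory subunit of PI3-kinase, averaged 63.6 ± 19.2 CPM in fibroblasts, against 168 ± 28.2 CPM in luminal cells (-1.40 log2, SE 0.17, adjusted p = 2.26e-07). Plcg1, a phospholipase that docks on PDGF receptors, was higher in endothelial cells by 1.43 log2 (SE 0.32, adjusted p = 0.00098), with an adjusted p of 0.322 without mouse 3. Ptpn1, a phosphatase of PDGF receptors, averaged 161 ± 30.1 CPM in macrophages, against 45.4 ± 4.03 CPM in luminal cells (2.00 log2, SE 0.14, adjusted p = 6.46e-12). Stat3, a transcription factor, was lower in mural cells (-0.59 log2, adjusted p = 0.045), a call lost in 6 alternatives with adjusted p between 0.122 and 0.394. Rasa1, a Ras GTPase-activating protein that binds PDGFRB, differed in both fibroblast comparisons. It was lower in mural cells than in fibroblasts (-1.16 log2, SE 0.31, adjusted p = 0.0125), with an adjusted p of 0.545 without mouse 3. It was higher in matrix-type than in adventitial-type cells (2.00 log2, SE 0.55, adjusted p = 0.0378), which did not pass in 6 alternatives.

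Across 24 profiles (6 classes in 4 tumours) and 10475 genes, the genes whose log2(CPM + 1) profile was most like that of each member were ranked by Pearson correlation, given as a description, since profiles of a tumour share a library and a depth. For Pdgfa these were the smooth muscle gene Myh11 (r = 0.84), Ppp1r14a (0.78) and Arid5b (0.77). For Pdgfb they were 2810025M15Rik (0.81), Atox1 (0.81) and Fcho2 (0.80), and for Pdgfc they were Churc1 (0.84), Efna4 (0.82) and Prom1 (0.81). Prnp, S100a10 and S100a16 (0.86 each) were nearest to Pdgfd. Col8a2 (0.98), Galnt17 (0.98) and Pcdh7 (0.97), each at 0 in mural cells, were nearest to Pdgfra. Prrx1 (0.98), Foxs1 (0.97) and Cd248 (0.97), found in both mural cells and fibroblasts, were nearest to Pdgfrb. Among the members themselves, the highest correlation was that of Pdgfd with Pdgfra (0.59).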

How the data were processed

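The 4 libraries were deposited as matrices of raw UMI counts per gene and barcode; per the submitters' processing notes FastQC and Cell Ranger 2.2.0 with mm10 (GRCm38) were used. Barcodes were gated as described. Since cells are not replicates, UMIs were added up by class within each mouse (tumours 3 and 4 jointly); a class with under 20 cells in a mouse was left out. These sums entered edgeR 4.0.16, with genes filtered by filterByExpr, TMM scaling, the quasi-likelihood F test and mouse as a block, since classes come from the same animals, with gate genes left out and Benjamini-Hochberg adjustment over all genes; calls are at 0.05, and SE is the log2 difference divided by the square root of F. In simulated data (macrophage against luminal, 8771 genes), 100% of genes changed 4-fold were recovered, 60% of those raised 2-fold and 52% of those at 0.5-fold. The changed genes were drawn above a minimum level, with a fixed spread and no differences between mice. Macrophages are also the largest non-luminal class, so recovery of sparser genes and in smaller classes was not tested. CPM values are given per tumour, over all cells of a class or all tumours where so named, and otherwise as means over 3 mice. Floors and the fold limits drawn from them are over all cells of a class unless a tumour is named. Intervals of 2 SE come from the fits, and intervals of CPM are 95% exact Poisson intervals. Thinning drew 1000 UMIs from each cell, which left out 880 shallower cells, all in tumour 1. Alternatives were DESeq2 1.42.0 size factors or its test, no count filter, no block, sums per tumour, each mouse left out, multi-gate cells assigned in the listed order, non-luminal cells without luminal keratins, and the 8% deepest barcodes left out as likely doublets. Genes to name beyond the members were the 3 most alike per member (mean of at least 5 CPM) and the called gene with the largest log2 difference per list and comparison. Members and lists were chosen with earlier results of these data known.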

Additional observations from a re-analysis of the deposited data

Results flagged for a closer look

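Among 33 groups of 4 tumours checked for a value standing apart (chance gives about 1 in 20), 3 had one. Pdgfa in macrophages of tumour 1, at 65.8 CPM, stood above the other 3 tumours. Pdgfra in endothelial cells of tumour 3 was 1.48 CPM, from 1 UMI, with 0 in the others. Pdgfrb in endothelial cells of tumour 3 was 5.93 CPM, from 4 UMIs, with 0 in the others. Where all others are at 0 any count is flagged, so the rate of 1 in 20 does not apply to these endothelial flags. Tumours 3 and 4 also share a mouse, so the 4 values are not independent.

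The 9084 cells that passed no gate entered no comparison, and all 6 genes had UMIs there above the limit that a count of 0 allows. Over all tumours they had 22.3 CPM of Pdgfa, 3.80 of Pdgfb, 12.9 of Pdgfc, 0.924 of Pdgfd, 3.95 of Pdgfra and 15.2 of Pdgfrb. The Pdgfrb value was 8.21 CPM without tumour 3, which alone had 34.4 CPM.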

How the results depend on the processing

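Of the refitted member differences, 333 kept their sign and side of the threshold, 8 gained a call, 7 lost one, and 6 changed sign, none of them called in either fit. These 6 were Pdgfra in mural cells (0.16 log2 with the DESeq2 test), Pdgfc in macrophages (0.017 with the DESeq2 test), Pdgfra in macrophages (0.15 without cells with luminal keratins) and, with a mouse left out, Pdgfrb in endothelial cells (-4.70 to 0.33), Pdgfrb in macrophages (-0.88 to 0.47) and Pdgfra in matrix-type against adventitial-type cells (-0.15 to 0.54), the negative values being without mouse 3. The cause was not tested. The number of PDGF genes called in basal cells was 2 and became 4 under the listed order of gates, and 1 to 3 with a mouse left out. In fibroblasts it was 3, 5 without the deepest barcodes, and 2 to 5 with a mouse left out. In endothelial cells it was 2, 1 with the DESeq2 test or with no replicate block, and 1 to 2 with a mouse left out. Over all genes, 756 were called in basal cells, 1285 with no count filter, 320 with no replicate block, 1209 without cells with luminal keratins, and 145 to 957 with a mouse left out. In mural cells 1558 were called, and 2410 without cells with luminal keratins. Matrix-type against adventitial-type cells gave 256 calls, and 155 with the DESeq2 test. The tip gene comparison gave 28 calls: 10 with the DESeq2 test, 79 with no filter, 0 with no replicate block, 88 with sums per tumour, 3 under the listed order, 17 without cells with luminal keratins, and 2 to 149 with a mouse left out. With a mouse left out, calls over all genes were 2771 to 5025 in fibroblasts (5213 with all mice), 596 to 1350 in mural cells, 1866 to 3064 in endothelial cells (3622), 2406 to 4431 in macrophages (4705), and 564 to 1438 between mural cells and fibroblasts (1475), the lowest each time without mouse 3. Without cells with luminal keratins, mural levels were 286 CPM of Pdgfa and 517 CPM of Pdgfrb; basal cells of mouse 2 (14 cells) were then left out of the fit. Pdgfb in the tip gene comparison could not be fitted without mouse 3, with sums per tumour or without cells with luminal keratins, where it was below the count filter, nor could Pdgfc in any class comparison without mouse 3. Cells per class, lowest for mural cells (240), limit what can be detected.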
